A study of Mus musculus with 6 samples.

Results

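Serotonin receptor genes were described in ventral hippocampus RNA of 6 mice, of which 3 carried the label NEGR1 overexpression and 3 the label control. The rows of 10 genes were taken by symbol from the count table, out of 56941 identifiers: Htr1a, Htr1b, Htr1d, Htr1f, Htr2a, Htr2c, Htr3a, Htr4, Htr6 and Htr7. All 10 were found, and 9 had enough counts to be tested; Htr1d did not. NEGR1 is an adhesion molecule of the IgLON family on the neuronal surface, and the study asked about its role in working memory and in anxiety-like and depression-like behaviour. The sources used here do not give the means of overexpression or the strain and age of the mice. Libraries were made from poly(A) RNA of the tissue, and each held between 30726110 and 38108394 counts. Values below are CPM, counts scaled to the size of the library with TMM factors, given per library in the order of replicates 1, 2 and 3, and fold changes are overexpression over control.

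Serotonin reaches the hippocampus through axons of the raphe nuclei in the brainstem, so the hippocampus receives the transmitter while its own cells supply the receptors. All but one of the receptor types described here are G protein-coupled receptors. The Htr1 genes encode receptors that act through Gi/o proteins, which lower cyclic AMP and open GIRK potassium channels; Htr2a and Htr2c receptors act through Gq and phospholipase C; Htr4, Htr6 and Htr7 receptors act through Gs and raise cyclic AMP. Htr3a encodes a subunit of a ligand-gated cation channel, carried in the forebrain by interneurons. Serotonin receptors are targets of drugs against anxiety, depression and nausea.

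The 250 bases before the RefSeq start of Htr1a, Htr2a and Htr2c are shown because these were the 3 genes with an unadjusted p under 0.05 in the comparison below. They are 5′ to 3′ on the plus strand of build GRCm38.p6, at chr13:105443443-105443692 for Htr1a, chr14:74640624-74640873 for Htr2a and chrX:146962263-146962512 for Htr2c. Capitals mark matches on either strand to the motifs searched.
Htr1a: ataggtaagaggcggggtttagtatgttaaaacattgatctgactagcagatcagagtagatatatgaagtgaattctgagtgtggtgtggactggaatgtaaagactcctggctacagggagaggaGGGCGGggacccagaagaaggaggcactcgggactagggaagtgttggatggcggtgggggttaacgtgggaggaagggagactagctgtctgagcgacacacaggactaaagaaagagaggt
Htr2a: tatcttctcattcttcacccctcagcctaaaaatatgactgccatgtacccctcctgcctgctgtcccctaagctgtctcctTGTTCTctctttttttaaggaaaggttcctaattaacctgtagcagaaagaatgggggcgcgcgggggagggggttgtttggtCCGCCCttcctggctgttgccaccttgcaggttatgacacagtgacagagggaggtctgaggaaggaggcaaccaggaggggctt
Htr2c: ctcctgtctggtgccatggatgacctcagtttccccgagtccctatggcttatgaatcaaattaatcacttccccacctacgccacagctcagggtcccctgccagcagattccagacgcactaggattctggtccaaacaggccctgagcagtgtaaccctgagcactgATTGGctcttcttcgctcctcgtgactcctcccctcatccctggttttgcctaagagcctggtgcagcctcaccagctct
The motifs were the GC box (GGGCGG), the CCAAT box (CCAAT), the TATA box (TATAAA), the E-box (CANNTG) and the glucocorticoid receptor half-site (TGTTCT), and no matches overlapped in these windows. The Htr1a window held 1 GC box, the Htr2a window 1 GC box and 1 half-site, and the Htr2c window 1 CCAAT box. Over 32851 promoter windows of the same length, 32.7% held a GC box, 33.8% a CCAAT box, 12.4% a TATA box, 66.2% an E-box and 16.1% a half-site. No motif was found in all 3 windows. Their GC content was 50.4% for Htr1a, 52.8% for Htr2a and 55.6% for Htr2c, beside a median of 52.4% over all windows. Windows were found for 8 of the 10 genes.

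Neuronal transcripts were abundant in every library, with Camk2a and Snap25 leading a list of 8 neuron markers whose summed level was 9485 to 9757 CPM in overexpression libraries and 9820 to 10688 CPM in control libraries. The 3 overexpression libraries were the lower on this sum, with 0 of the 8 markers past the threshold; its part in the receptor values was not tested. Of 6 markers of the serotonin neurons themselves, 4 were too low to be tested. Fev, a transcription factor of these neurons, had 1 count in the 6 libraries together, and Slc6a4, the serotonin transporter, had 1, 2 and 7 counts in overexpression libraries and 2, 4 and 0 counts in control libraries. Tph2, the serotonin-making enzyme of neurons, was at 0.686, 1.32 and 0.999 CPM in overexpression libraries and 0.592, 0.771 and 0.656 CPM in control libraries. Gata2, a transcription factor that GABA neurons of the midbrain and blood-forming and vessel cells also use, was higher, at 5.64, 3.54 and 5.10 CPM in overexpression libraries and 5.42, 3.64 and 4.33 CPM in control libraries. Negr1 itself stood at 185, 199 and 195 CPM in the libraries labelled overexpression and at 181, 168 and 180 CPM in control libraries, a fold of 1.09 with an edgeR adjusted p of 0.488. The gene that the label names therefore did not pass the threshold, and every comparison below is between libraries as labelled.

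Levels can be set side by side between genes only per length, here as CPM per kilobase of annotated exon. On that scale Htr1a was the highest of the 10 genes in all 6 libraries, at 10.5 ± 0.462 in overexpression and 9.11 ± 0.184 in control libraries (SD, n = 3 each). Htr2c followed at 6.06 ± 0.701 in overexpression and 5.34 ± 0.401 in control libraries. Htr3a was at 4.53 ± 0.296 in overexpression and 4.74 ± 0.0344 in control libraries, and Htr2a at 3.69 ± 0.209 in overexpression and 3.22 ± 0.198 in control libraries. These 4 genes stood in the same order in every library, and the ranges of neighbours did not meet over the 6 libraries. The gap was narrow between Htr2c, whose lowest library was at 4.89, and Htr3a, whose highest was at 4.86. Exon lengths were those of GENCODE M21, and the counts may rest on another annotation. The order between genes is therefore given for these lengths only, and other lengths were not tested. Htr2a, Htr4, Htr7 and Htr6 came next with ranges that overlapped from neighbour to neighbour. Htr4 was at 3.06 ± 0.409 in overexpression and 2.95 ± 0.175 in control libraries, Htr7 at 2.97 ± 0.499 in overexpression and 2.80 ± 0.263 in control libraries, and Htr6 at 2.58 ± 0.322 in overexpression and 2.90 ± 0.305 in control libraries. Htr7 exceeded Htr6 in 3 of 6 libraries and Htr4 exceeded Htr7 in 4 of 6, so the order within this group was not set beyond the spread between libraries. Htr1b, at 1.97 ± 0.427 in overexpression and 1.77 ± 0.392 in control libraries, and Htr1f, at 0.638 ± 0.207 in overexpression and 0.524 ± 0.163 in control libraries, were lower in every library. Htr1d was the lowest, at 0.0507 ± 0.0210 in overexpression and 0.0625 ± 0.0397 in control libraries.

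**Figure D1:**
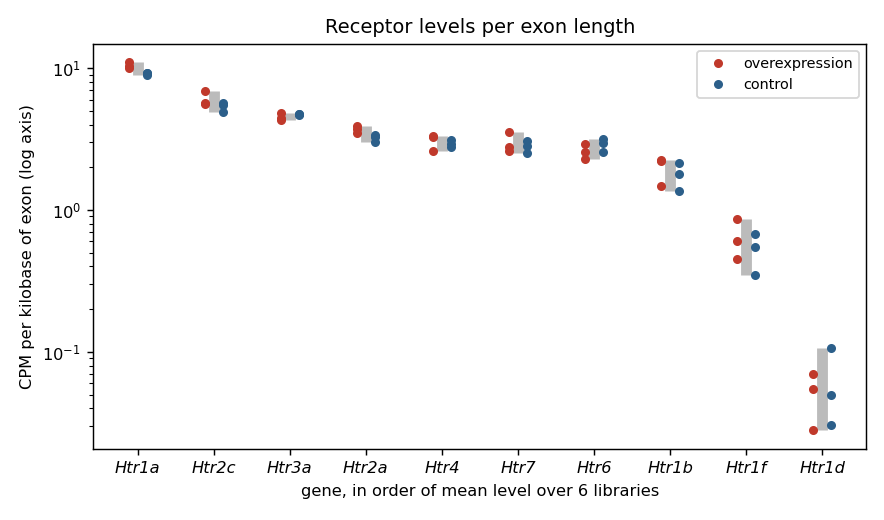
CPM per kilobase of exon (log axis) for the 10 receptor genes in order of their mean over 6 libraries; points are libraries, overexpression in red on the left and control in blue on the right, and grey bars span all 6. Htr1a stands above the rest in every library, and the bars of Htr2a, Htr4, Htr7 and Htr6 overlap from one to the next.

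Among all 19354 genes tested, the mean level per length put Htr1a at the 74.6th percentile, Htr2c at the 62.1st and Htr3a at the 57.1st. Near the middle of the genes tested were Htr2a, Htr4, Htr7 and Htr6, between the 45.2nd and the 50.2nd percentile. Htr1b lay at the 38.03th, Htr1f at the 19.8th and Htr1d, itself not tested, at the 0.354th. Summed per length, the 4 Gi/o-coupled genes made up 35.2, 36.3 and 37.7% of the 10 in overexpression libraries and 34.96, 32.8 and 35.2% in control libraries. Htr1a alone made up 29.0 ± 1.29% in overexpression and 27.3 ± 0.702% in control libraries (SD, n = 3 each). The pair coupled to Gq held 29.7, 25.4 and 26.1% in overexpression and 24.9, 26.1 and 25.8% in control libraries, and the 3 genes coupled to Gs held 23.2, 24.8 and 23.8% in overexpression and 25.7, 26.7 and 25.3% in control libraries. Htr3a held 11.8, 13.5 and 12.4% in overexpression and 14.4, 14.4 and 13.7% in control libraries. The Gs and Htr3a shares were lower in all 3 overexpression libraries than in any control library. The Gi/o shares were higher in all 3, but only just, at 35.24% in overexpression replicate 1 against 35.18% in control replicate 3. The Gq shares overlapped. A share falls when other members rise, so these 4 values are not independent, and no test was made of them.

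No receptor gene passed an adjusted p of 0.05 in edgeR's quasi-likelihood test of overexpression against control, in which 0.0465% of all genes tested passed (9 of 19354). DESeq2 and limma-voom called 0 of the receptor genes as well. The 3 genes with an unadjusted p under 0.05 were Htr1a, Htr2a and Htr2c, all with a fold above 1, beside 9.24% of all genes. In Htr1a and Htr2a the groups did not overlap, both with overexpression higher, beside 15.1% of all genes in either direction and 7.07% with overexpression higher. Of the 9 tested receptors, 7 had a fold change above 1, beside 50.4% of all genes, and their median log2 fold change was 0.16, beside 0.0015 over all genes. These counts are a description of 9 genes in 6 libraries. With overexpression replicate 1 left out, 1 gene in place of 3 had an unadjusted edgeR p under 0.05, beside 12% of all genes. The median log2 fold change of the 9 genes was then 0.083. RNA of whole tissue was measured, so fewer cells of a type and less RNA per cell cannot be told apart.

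**Figure D2:**
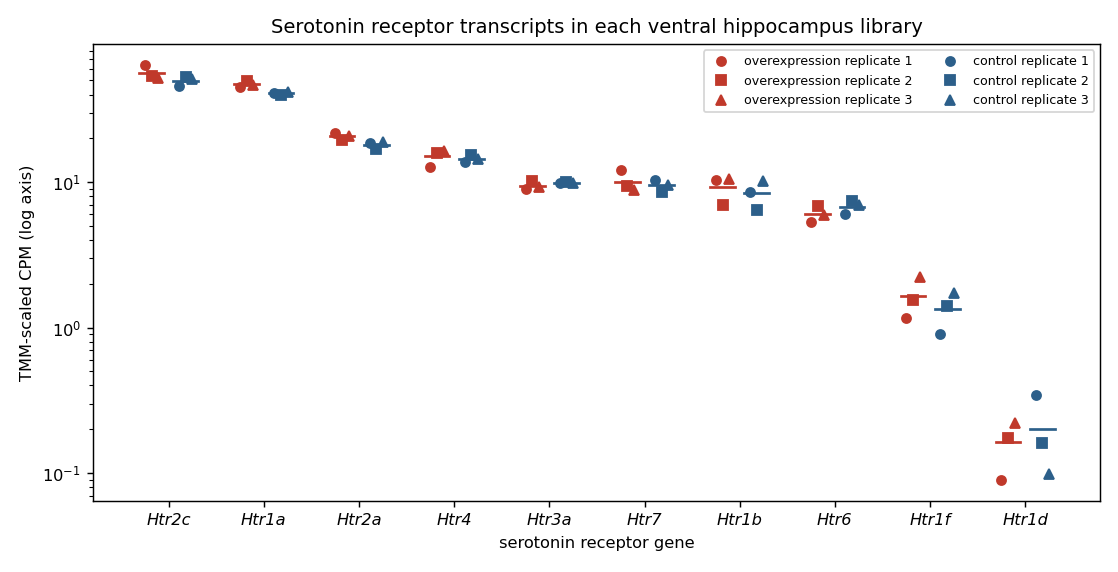
TMM-scaled CPM (log axis) of the 10 receptor genes, with a symbol for each replicate number, overexpression in red on the left and control in blue on the right, and a line at each group mean. Htr1a and Htr2a are the genes whose overexpression libraries all lie above their control libraries; Htr1d rests on 3 to 11 counts a library.

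Htr1a (ENSMUSG00000021721), whose receptor acts as autoreceptor on raphe neurons and as inhibitory receptor on hippocampal pyramidal and granule cells, had 45.2, 49.2 and 46.2 CPM in overexpression libraries and 41.3, 39.9 and 41.3 CPM in control libraries. Every overexpression library lay above every control library, by the narrowest margin between 45.2 and 41.3 CPM. The mean was 46.9 ± 2.07 CPM in overexpression, against 40.8 ± 0.825 CPM in control libraries (SD, n = 3 each). The fold of 1.15 had a 95% interval of 1.05 to 1.25, and the log2 fold change was 0.20 ± 0.060 (SE). Its edgeR adjusted p was 0.353, from an unadjusted p of 0.00483 that ranked 264 of 19354. The SD of the control libraries, 0.825 CPM, was below the 1.11 CPM that counting alone would give. That of the overexpression libraries, 2.07 CPM, was above the 1.16 CPM of counting. Each SD comes from 3 libraries, too few to show that mice differed by no more than counting error.

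Htr1b (ENSMUSG00000049511), the receptor of axon terminals that holds back transmitter release, had 10.4, 6.99 and 10.6 CPM in overexpression libraries and 8.50, 6.46 and 10.2 CPM in control libraries. Replicate 2 was the lowest of its group in both, and the groups overlapped. The log2 fold change was 0.16 ± 0.19 (SE), with a 95% interval of the fold of 0.824 to 1.51 (edgeR adjusted p = 0.851). Its direction rested on control replicate 2, without which the log2 fold change was -0.0025; leaving out overexpression replicate 1, 2 or 3 gave 0.074, 0.33 or 0.059, and leaving out control replicate 3 gave 0.32. The SD within groups, 2.02 CPM in overexpression, against 1.85 CPM in control libraries, was well above the counting error of 0.518 CPM in overexpression, against 0.505 CPM in control libraries. An antisense gene, D430036J16Rik, shares 852 exon bases with Htr1b on the opposite strand in GENCODE M21. It had 3.58, 2.16 and 2.94 CPM in overexpression, against 2.71, 1.68 and 3.08 CPM in control libraries, again lowest in replicate 2 of each group. The sources used here do not state whether the counting used strand, so reads of Htr1b and of this gene cannot be told apart with certainty; the other 9 receptor genes share no exon base with another annotated gene.

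Htr1f (ENSMUSG00000050783), a receptor targeted by drugs against migraine, had 1.16, 1.55 and 2.22 CPM in overexpression, against 0.903, 1.41 and 1.74 CPM in control libraries, from 29 to 80 counts each. The groups overlapped, and the fold interval of 0.790 to 1.89 was the widest of the 9 genes (log2 fold change 0.29 ± 0.29 SE, edgeR adjusted p = 0.800). That value moved with single libraries: leaving out overexpression replicate 1 gave 0.48, and leaving out overexpression replicate 3 gave 0.012. Leaving out control replicate 1 gave 0.075, and leaving out control replicate 3 gave 0.50. Htr1d, close kin of Htr1b, had 3, 6 and 8 counts in overexpression and 11, 6 and 3 counts in control libraries. That depth could not show a difference, and in the fit without a filter its log2 fold change was -0.28 with an edgeR adjusted p of 0.933.

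Htr2a (ENSMUSG00000034997), the main cortical receptor of the Gq-coupled type and the target of classical hallucinogens, had 21.8, 19.4 and 20.8 CPM in overexpression libraries and 18.4, 16.8 and 18.9 CPM in control libraries. The groups did not overlap, though overexpression replicate 2 and control replicate 3 lay close together. The fold of 1.15 had a 95% interval of 1.02 to 1.30. The log2 fold change was 0.20 ± 0.082 (SE, edgeR adjusted p = 0.483, unadjusted p = 0.0288). With 1 library left out, the unadjusted edgeR p of Htr2a ranged from 0.0194 to 0.119. The lowest was without overexpression replicate 2 and the highest without control replicate 2. Without overexpression replicate 1 it was 0.103. Cortex markers, which would come with tissue from the border of the dissection, summed to 381, 282 and 302 CPM in overexpression, against 325, 319 and 339 CPM in control libraries. The library highest in Htr2a, overexpression replicate 1, was also the highest in these markers, while overexpression replicates 2 and 3 were the lowest. Most of that spread between libraries came from Tshz2, Cux2 and Rxfp1. Of the 10 markers, 6 had a fold above 1 and 4 below, beside 50.4% of all genes above 1. In 2 of the 10, named after their values were seen, all 3 overexpression libraries lay above every control library, beside 7.07% of all genes. Rorb had 24.9, 27.2 and 27.4 CPM in overexpression, against 22.8, 23.8 and 21.4 CPM in control libraries, and Foxp2 had 2.86, 2.81 and 2.08 CPM in overexpression, against 1.53, 1.30 and 1.74 CPM in control libraries (edgeR adjusted p = 0.401 for Rorb and 0.335 for Foxp2). The 10 markers had a median log2 fold change of 0.029, and the part of cortex tissue in the Htr2a values was not tested.

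**Figure D3:**
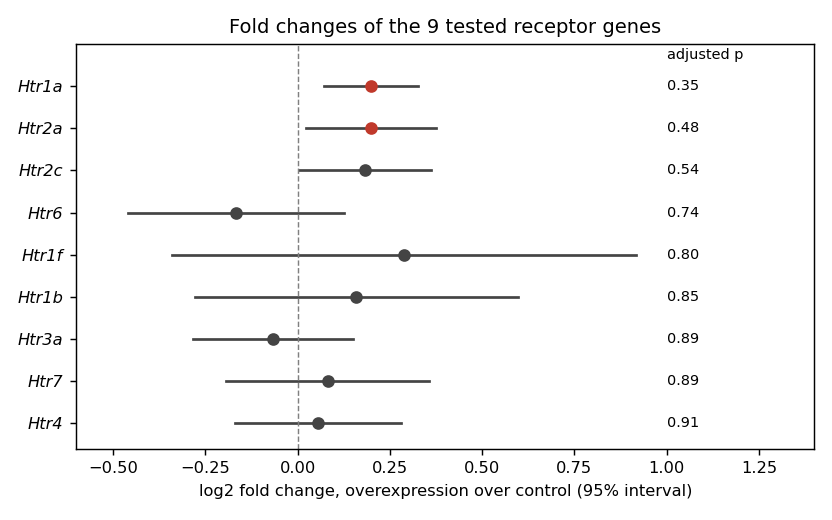
Log2 fold change of the 9 tested receptor genes, overexpression over control, with 95% intervals from edgeR and adjusted p at the right, in order of p from the top; red points mark genes whose groups did not overlap. The intervals of Htr1a, Htr2a and Htr2c lie above 0, that of Htr2c from 0.0029, and the smallest adjusted p is 0.353.

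Htr2c (ENSMUSG00000041380), which lies on the X chromosome and is read both in neurons and, at very high level, in the epithelium of the choroid plexus, had 64.1, 53.3 and 52.3 CPM in overexpression libraries and 45.6, 52.7 and 51.1 CPM in control libraries. Overexpression replicate 1 was the highest and control replicate 1 the lowest, and the other 4 libraries lay within 51.1 to 53.3 CPM, so the groups overlapped. The mean was 56.6 ± 6.54 CPM in overexpression, against 49.8 ± 3.74 CPM in control libraries (SD, n = 3 each), a fold of 1.13 with a 95% interval of 1.002 to 1.29 (edgeR adjusted p = 0.535, unadjusted p = 0.0469). Markers of choroid plexus epithelium were read beside it. Ttr, the transthyretin gene that leads this list, was at 640, 18.3 and 38.3 CPM in overexpression, against 3.08, 22.2 and 3.93 CPM in control libraries. The 16 markers summed to 810, 59.9 and 85.7 CPM in overexpression libraries and 35.4, 62.9 and 38.7 CPM in control libraries, with Steap1 at 0 in 1 control library and no other marker at 0. Overexpression replicate 1 stood far above every other library in this sum. All 15 of the tested markers had a fold above 1, beside 50.4% of all genes. Of the 15, 6 were higher in all 3 overexpression libraries than in any control library, beside 7.07% of all genes, and 0 passed the threshold. The library highest in the marker sum was the highest in Htr2c, and the library lowest in the sum was the lowest in Htr2c. The lowest sums were close: Ttr was lower in control replicate 1, whereas F5 was lower in control replicate 3 (0.689 against 1.46 CPM). Overexpression replicate 3 had a higher sum than control replicate 2 but lower Htr2c, while control replicate 3 was below both on each. The part of choroid plexus tissue in the Htr2c values was not tested. Without overexpression replicate 1 the log2 fold change of Htr2c was 0.083 in place of 0.18, and without control replicate 1 it was 0.13, with unadjusted edgeR p-values of 0.270 and 0.176.

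Htr3a (ENSMUSG00000032269) had 8.92, 10.1 and 9.27 CPM in overexpression libraries and 9.87, 9.95 and 9.80 CPM in control libraries. The control libraries were closer to each other than counting error would give, at an SD of 0.0716 beside 0.544 CPM, and they lay within the range of the overexpression libraries. The log2 fold change was -0.066 ± 0.10 (SE), with a fold interval of 0.823 to 1.11 (edgeR adjusted p = 0.885). Markers of the interneurons that carry this channel, 12 genes led by Cnr1 and Cck, summed to 784, 757 and 753 CPM in overexpression, against 738, 765 and 735 CPM in control libraries. Their sum overlapped between the groups, with 0 of 12 past the threshold and a median log2 fold change of 0.051. The fold exceeded 1 in 10 of 12, beside 50.4% of all genes. Cck, a neuropeptide gene, was at 151, 148 and 148 CPM in overexpression, against 163, 167 and 156 CPM in control libraries. Cck and the neuropeptide gene Npy were lower in all 3 overexpression libraries than in any control library, 2 of 12 beside 15.1% of all genes. An unadjusted edgeR p under 0.05 was found in 2 of 12, beside 9.24% of all genes. These were Cck, with a fold of 0.920, and Nr2f2, with a fold of 1.20. Npy and Nr2f2 were named after their values were seen. The part of these interneurons in the Htr3a values was not tested. With 1 library left out the log2 fold change of Htr3a ranged from -0.12 to -0.029.

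The Gs-coupled receptors did not pass the test either. Htr4 (ENSMUSG00000026322), which raises the excitability of hippocampal neurons, had 12.7, 15.96 and 16.4 CPM in overexpression, against 13.7, 15.4 and 14.3 CPM in control libraries (fold interval 0.889 to 1.21, edgeR adjusted p = 0.912). Htr6 (ENSMUSG00000028747), a receptor found on neuronal primary cilia, had 5.34, 6.84 and 5.96 CPM in overexpression, against 6.01, 7.42 and 6.92 CPM in control libraries (fold interval 0.728 to 1.09, edgeR adjusted p = 0.745). Htr7 (ENSMUSG00000024798), a receptor shared by thalamus and hippocampus, had 12.02, 9.39 and 8.85 CPM in overexpression, against 10.4, 8.62 and 9.57 CPM in control libraries (fold interval 0.875 to 1.28, edgeR adjusted p = 0.888). Groups overlapped for all 3 genes. For Htr4 the direction rested on overexpression replicate 3 and for Htr7 on overexpression replicate 1: the log2 fold change of Htr4 was 0.055 with all libraries and -0.010 without that library, and that of Htr7 was 0.082 and -0.063. With 1 library left out that of Htr6 ranged from -0.26 to -0.087.

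The extremes of the 9 tested genes were spread over several libraries. Overexpression replicate 1 had the highest value of Htr2a, Htr2c and Htr7 and the lowest of Htr3a, Htr4 and Htr6, and overexpression replicate 3 had the highest of Htr1b, Htr1f and Htr4. Control replicate 2 had the lowest value of Htr1a, Htr1b, Htr2a and Htr7 and the highest of Htr6. On the log2 scale overexpression replicate 1 lay 0.28 above the mean of 6 libraries in Htr2c and 0.30 above it in Htr7, and it deviated by -0.21 in Htr4 and -0.26 in Htr6. Wider deviations stood elsewhere, with Htr1f at 0.63 in overexpression replicate 3 and -0.67 in control replicate 1, and Htr1b at -0.43 in control replicate 2. Markers of hippocampal fields varied between the libraries too. The 10 dentate gyrus granule cell markers, led by Prox1 and Stxbp6, summed to 303, 551 and 481 CPM in overexpression, against 375, 403 and 353 CPM in control libraries. All 10 had a fold above 1, beside 50.4% of all genes, and 2 of 10 had an unadjusted edgeR p under 0.05, beside 9.24%. The groups overlapped in all 10, 0 passed the threshold, and their log2 fold changes had a median of 0.26. Overexpression replicate 1 was the lowest of 6 on this list, and also on the CA3 list led by Cpne4 and Grik4, at 291, 338 and 350 CPM in overexpression, against 317, 373 and 304 CPM in control libraries. On the CA1 list, led by Mpped1 and Fibcd1, it was the highest, at 857, 718 and 739 CPM in overexpression, against 789, 693 and 851 CPM in control libraries. Thalamus and habenula markers, led by Rora and Slc17a6, summed to 142, 118 and 150 CPM in overexpression, against 120, 123 and 115 CPM in control libraries, with Shox2, Gbx2 and Pou4f1 each at 0 in at least 1 library. That sum is mostly Rora and Slc17a6 and overlapped. Of the 10 tested markers on the list, 8 had a fold above 1, beside 50.4% of all genes. An unadjusted edgeR p under 0.05 was found in 4, beside 9.24% of all genes. In 5, all 3 overexpression libraries were higher than any control library, beside 7.07% of all genes. Among the 5, named after their values were seen, Zic1, a transcription factor, had 13.8, 16.4 and 13.98 CPM in overexpression, against 11.3, 10.1 and 8.79 CPM in control libraries, and Shox2, another, had 16, 14 and 35 counts in overexpression and 3, 0 and 2 counts in control libraries. None of the list passed the threshold, and the smallest edgeR adjusted p was 0.117. Htr1a had neither its highest nor its lowest value in this library: it was 45.2 CPM in overexpression replicate 1 and 46.2 CPM in overexpression replicate 3, and its log2 fold change was 0.22 without overexpression replicate 1. Its order in overexpression libraries was that of the dentate gyrus sum, lowest in replicate 1 and highest in replicate 2, whereas in control libraries replicate 2 had the highest dentate gyrus sum and the lowest Htr1a. What part the mix of fields and neighbouring tissue had in the receptor values, Htr1a included, was not tested.

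**Figure D4:**
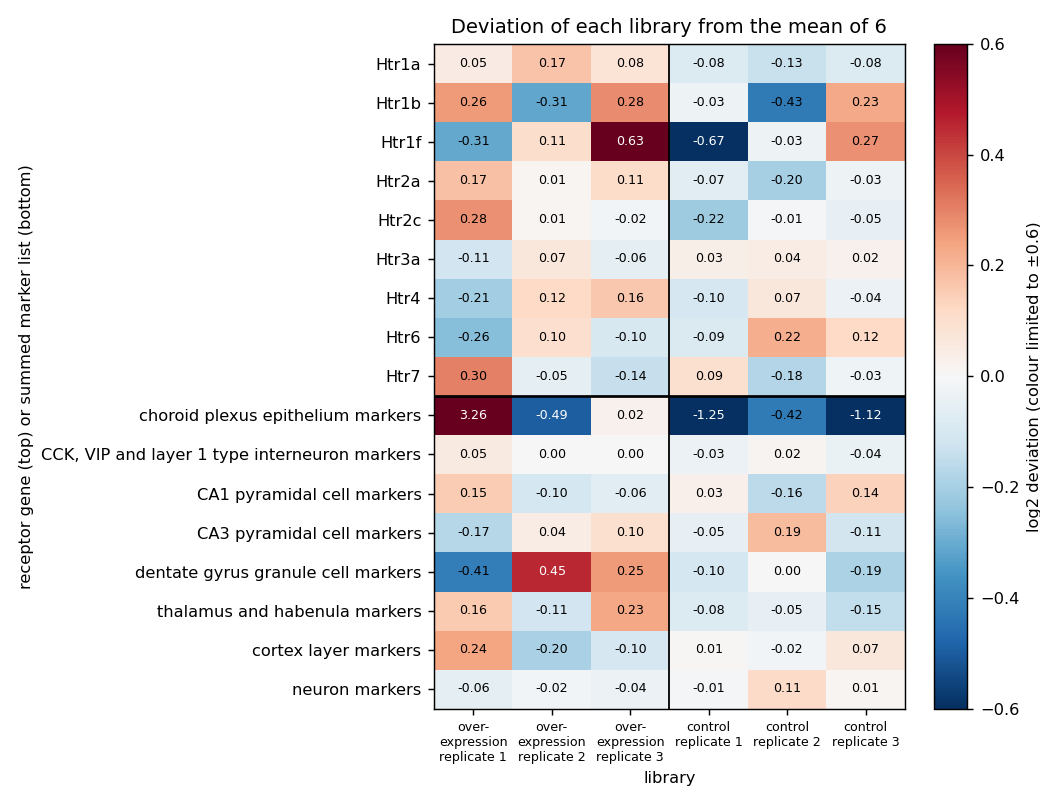
Log2 deviation of each library (columns, overexpression on the left) from the mean of the 6 libraries, for the 9 tested receptor genes (top) and for the summed CPM of marker lists (bottom); colour stops at 0.6 in either direction. Overexpression replicate 1 is high in Htr2c, Htr7 and choroid plexus markers and low in Htr4, Htr6 and dentate gyrus markers.

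The remaining serotonin receptor genes of the mouse were read in the same way. Htr5a, whose mean per length was 3.02 beside 3.01 for Htr4, had 17.99, 14.6 and 14.9 CPM in overexpression, against 15.9, 17.6 and 16.5 CPM in control libraries (edgeR adjusted p = 0.853). Htr5b, which has lost its coding frame in humans, had 5.79, 5.73 and 5.74 CPM in overexpression, against 5.20, 5.90 and 5.54 CPM in control libraries (edgeR adjusted p = 0.937). Both overlapped between the groups. Htr2b, a receptor of heart and vessels, was near the lower limit with 7 to 17 counts a library (edgeR adjusted p = 0.961). Htr3b, the partner subunit of Htr3a, had 2, 0 and 0 counts in overexpression and 1, 0 and 2 counts in control libraries, which is too few for a comparison.

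Genes around the receptors were read by lists of what they do, and 0 genes of these lists passed the threshold in edgeR, DESeq2 or limma-voom. Of the genes that make, carry and break down serotonin, 10 of 12 were tested, 0 had an unadjusted p under 0.05 and the median log2 fold change was 0.12. The smallest p-values there were those of Tph1, the serotonin-making enzyme of tissues outside neurons, at 0.481 ± 0.0878 CPM in overexpression, against 0.274 ± 0.0578 CPM in control libraries, and of Tph2 (SD, n = 3 each; edgeR adjusted p = 0.564 for Tph1 and 0.615 for Tph2). Tph1 rested on 8 to 19 counts a library. The 11 genes of Gi/o proteins and GIRK channels had a median of 0.00057, with 1 unadjusted p under 0.05: Rgs4, which shortens Gi/o signals, was at 143 ± 5.52 CPM in overexpression, against 128 ± 6.22 CPM in control libraries (edgeR adjusted p = 0.429). Gnai1, a Gi subunit, was at 228 ± 8.57 CPM in overexpression, against 211 ± 7.65 CPM in control libraries (edgeR adjusted p = 0.550). These lists are described by their counts, and the background of 9.24% applies to each.

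On the Gq and phospholipase C list of 10 genes the median log2 fold change was -0.016. Plcb4, a phospholipase C, was at 27.3 ± 2.92 CPM in overexpression, against 24.4 ± 0.955 CPM in control libraries (edgeR adjusted p = 0.575). On the Gs and cyclic AMP list 3 of 17 genes had an unadjusted p under 0.05, with a median of -0.034. Prkar2b, a regulatory subunit of protein kinase A, had 36.3, 37.5 and 39.8 CPM in overexpression, against 30.9, 31.9 and 31.6 CPM in control libraries, with groups that did not overlap. Its fold was 1.20, with an interval of 1.10 to 1.32 and an edgeR adjusted p of 0.215. It passed, at an edgeR adjusted p of 0.0298, when no filter on low counts was applied. In that fit 304 of 35633 genes passed, against 9 of 19354 in the main fit. Adcy1, the calcium-stimulated adenylyl cyclase of neurons, had 997, 1020 and 1045 CPM in overexpression, against 860, 941 and 980 CPM in control libraries (edgeR adjusted p = 0.473). On the list of receptor adaptors 0 of 13 had an unadjusted p under 0.05 and the median was -0.0029, with Dlg4, the scaffold PSD-95, at 702 ± 6.69 CPM in overexpression, against 750 ± 19.1 CPM in control libraries and Grk5, a receptor kinase, at 19.6 ± 1.18 CPM in overexpression, against 17.6 ± 0.216 CPM in control libraries (edgeR adjusted p = 0.574 for Dlg4 and 0.575 for Grk5). Ahnak, a large scaffold of the same list, was at 110 ± 19.7 CPM in overexpression, against 89.5 ± 9.23 CPM in control libraries (edgeR adjusted p = 0.603), and is named after its values were seen because it passed, at 0.0412, without a filter.

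The genes whose pattern over the 6 libraries lay nearest to that of Htr1a were Ndufaf8, Fpgt and H2afv, with root mean square differences of 0.010, 0.026 and 0.026 in log2 deviations. Ndufaf8 was at 5.35 ± 0.181 CPM in overexpression, against 4.66 ± 0.0970 CPM in control libraries, with an edgeR adjusted p of 0.675. For Htr1f, the tested receptor with the widest range over libraries, the nearest were Rab43, a gene with no symbol in the tables used, and 4930429F24Rik, at 0.093, 0.12 and 0.14. Over so few libraries many genes come close to any pattern, and the likeness is a description of these libraries alone.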

How the data were processed

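Poly(A) RNA of ventral hippocampus was sequenced from strand-specific libraries, per the labels' protocols. The authors deposited raw counts for each Ensembl gene, in 1 column per library, and 0 columns were unused. The submitters' processing notes name featureCounts 2.0.3, STAR 2.7.10 and Trimmomatic 0.36 beside both GRCm39 and mm10, with no role for each; the sources used here do not give the strand setting or annotation. Symbols were found for 51948 of 56941 identifiers. The total of 30726110 to 38108394 counts per library sets the counting error, which was taken as the square root of the mean count.

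Computed here: edgeR 4.0.16's quasi-likelihood test (R 4.3.3, robust, TMM factors, default filter, group as the only term), with p-values adjusted by Benjamini-Hochberg over 19354 genes and a threshold of 0.05, standard errors from the F statistic and 95% intervals. It was tested on simulated counts. Alternatives were DESeq2 1.42.0, limma-voom 3.58.1 with sample weights, other scaling factors, no filter, a block for the replicate number, a stricter filter (at least 1 CPM in 3 libraries), leaving out each library in turn and a threshold of 0.1. Exon length is the union of exons in GENCODE M21. Promoter windows are RefSeq's (GRCm38.p6). Members, lists and tests were chosen with earlier results of these data known. Genes named are all serotonin receptors, and on each pathway list those past the threshold or else the 2 with the smallest p; from marker lists the 2 of highest level; and the 3 nearest patterns of the receptors with the smallest p and the widest range, among genes of at least 1 CPM, with an offset of 0.01 CPM before logs. Every pair of libraries differed by more than sampling noise (chi-square per degree of freedom 4.28 to 12.9), and the mice are separate per the series' design text. A gene that the rule for named genes selects is not reported here.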

Additional observations from a re-analysis of the deposited data

How the results depend on the processing

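Under every alternative run, 0 of the receptor genes passed the threshold, and Htr1a kept a positive log2 fold change of 0.16 to 0.22 (adjusted p 0.171 to 0.693). Htr2a lay between 0.15 and 0.24 and Htr2c between 0.083 and 0.24. The direction turned for Htr7 without overexpression replicate 1 (-0.063; range over left-out libraries up to 0.17), for Htr4 without overexpression replicate 3 (-0.010; up to 0.16) and for Htr1b without control replicate 2 (-0.0025; up to 0.33); the other tested receptors kept theirs in the alternatives run. Serotonin pathway genes past the threshold numbered 0 in every alternative except no filter, where 2 passed (Prkar2b and Ahnak). The count over all genes, 9, was 304 with no filter, 5 with the stricter filter, 108 in DESeq2, 2 in limma-voom with sample weights, 26 with the replicate block and 19 at an adjusted p of 0.1; with 1 library left out it was 2 to 63 (overexpression replicate 1 out, 63; replicate 2 out, 5; control replicate 1 out, 39; replicate 2 out, 2; replicate 3 out, 3). The cause was not tested. Deviations of same-numbered libraries correlated only at 0.017 to 0.023, although each of the 6 correlated best with its own number. These values do not settle whether the replicate number pairs the libraries. With the replicate block 2 in place of 3 receptors had an unadjusted edgeR p under 0.05, beside 8.77% of all genes. Depth limits Htr1d and Htr1f most.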
